A study of Mus musculus with 27 samples.

Results

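Splenic B cells of the mouse were stimulated through a bacterial product or through signals that T cells provide, and the RNA of both stimulated states was compared directly, without use of unstimulated B cells. The comparison comprised 8 of the 27 libraries of the series: 4 of B cells given LPS and 4 of B cells given IL-4+anti-CD40, all from the first of its 2 experiments. Every one of the 54532 genes in the count table was considered, and 14078 had enough counts to be tested. The B cells came from wild-type C57BL/6 mice, were taken from the spleen by negative selection with magnetic beads, and received the vehicle DMSO together with the stimulus for 3 h. The wider study asked how the drug disulfiram acts on activated B cells, and its drug-treated and unstimulated libraries were not used here. The second experiment held 1 vehicle library for each stimulus, also after 3 h, and served as a check of direction. The study counts its samples as biologically independent, but neither the labels nor the methods say that the 4 libraries of a group came from separate mice, so the p-values measure the spread between these samples, which may be technical.

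LPS is sensed by TLR4 with its partner proteins MD-2 (Ly96) and CD14. TLR4 signals through MyD88, which leads to NF-κB, and through TRIF, which leads to IRF3 and to type I interferon, and in B cells it drives antibody responses that need no T cell help. IL-4 binds a receptor of the IL-4Rα and common γ chains and activates STAT6, which opens the germline transcripts of the IgG1 and IgE constant regions and raises CD23 (Fcer2a) and MHC class II. CD40 is the receptor for the ligand of helper T cells and activates both the canonical and the alternative NF-κB pathway through TRAF adaptors. Both stimuli therefore reach NF-κB, whereas interferon and STAT6 signalling are each known for one of them.

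Promoter sequences of genes higher with LPS are shown first. They are examples chosen because they held a short motif, and promoters on the LPS side without it are not shown. The motif was GAAA, any 2 bases, GAAA, on either strand, which is the core of the element bound by interferon-activated factors (ISRE). Each line gives the stretch of the RefSeq promoter (GRCm38.p6) around the motif, 5′ to 3′ on the strand of the gene and upstream of its start, with the motif in capitals.
Ifit3 (chr19:34583353-34583436, plus strand): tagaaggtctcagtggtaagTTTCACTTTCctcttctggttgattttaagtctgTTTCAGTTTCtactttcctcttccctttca
Ifit1 (chr19:34640765-34640833, plus strand): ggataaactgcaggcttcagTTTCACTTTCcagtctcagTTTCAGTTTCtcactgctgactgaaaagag
Isg15 (chr4:156200855-156200916, minus strand): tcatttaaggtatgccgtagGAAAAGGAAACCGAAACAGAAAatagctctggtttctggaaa
Cxcl10 (chr5:92349073-92349122, minus strand): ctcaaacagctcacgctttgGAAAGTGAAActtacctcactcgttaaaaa
Rsad2 (chr12:26456543-26456592, minus strand): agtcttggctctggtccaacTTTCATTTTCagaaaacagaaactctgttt
Gbp2 (chr3:142620584-142620633, plus strand): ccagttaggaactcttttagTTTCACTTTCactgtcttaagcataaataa
Bst2 (chr8:71537567-71537622, minus strand): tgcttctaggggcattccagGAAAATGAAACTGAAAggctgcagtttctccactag
The stretch of Ifit3b was the same letter for letter as that of Ifit3, and the near-identical copies may share reads in the counting.

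Within 250 bases upstream of the start, 17 of the 30 listed interferon-stimulated genes with a RefSeq promoter held this motif (56.7%), against 610 of 20481 genes with a promoter in RefSeq (2.98%). Among the genes at least 8-fold higher with LPS, 44 of 151 with a promoter held it (29.1%), and among those at least 8-fold higher with IL-4+anti-CD40, 0 of 35 did. The spacing that STAT6 is known to prefer, TTC, any 4 bases, GAA, was found in 2 of these 35 promoters (5.71%) and in 5.52% of all promoters. With 3 bases in place of 4, the motif bound by other STAT proteins, the shares were 8.57% and 6.77%. Among the genes at least 8-fold different, both spacings were more frequent in promoters on the LPS side, with the spacing of 4 in 16 of the 151 (10.6%) and that of 3 in 21 (13.9%). Of the 30 interferon-stimulated genes, 3 and 7 held them (10% and 23.3%). Of the 10 listed IL-4 and STAT6 targets with a promoter and called towards IL-4+anti-CD40, 1 and 2 did (10% and 20%). Both TTC motifs read the same on either strand, motifs may share letters, and a promoter was counted once for each motif. The spacing of 4 was found in the promoters of Ccl17 and Cd44, a chemokine and an adhesion receptor. Both were higher with IL-4+anti-CD40 but less than 8-fold (log2 fold changes -2.61 and -1.43), so they are not among the 35, and they are shown as examples chosen for the match:
Ccl17 (chr8:94810279-94810328, plus strand): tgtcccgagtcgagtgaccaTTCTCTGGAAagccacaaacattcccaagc
Cd44 (chr2:102901847-102901896, minus strand): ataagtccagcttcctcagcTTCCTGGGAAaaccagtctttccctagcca
A match describes the letters only, and promoters say nothing of enhancers further away.

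Total counts of the 8 libraries lay between 17804851 and 23183245, and all 14 B cell markers of a list were detected, with a summed level of 4567 to 4855 FPKM (fragments per kilobase of transcript, scaled to library size, as deposited) with LPS against 4521 to 5138 with IL-4+anti-CD40. Some markers of other cells were near 0: Cd3e of T cells had at most 11 counts in any library, C1qa of macrophages at most 7 and Ly6g of neutrophils at most 1. Other markers of these cells were present. Enough counts to be tested were held by 9 of 12 T cell, 9 of 14 macrophage and monocyte and 8 of 12 neutrophil markers. The summed FPKM of 14 macrophage and monocyte markers was 96.3 to 112 with LPS against 99.7 to 115 with IL-4+anti-CD40, most of it from Lyz2, and that of 12 neutrophil markers was 23.3 to 26.5 and 19.7 to 24.6. Dendritic cell markers summed to 242 to 259 with LPS against 51.9 to 78.8 with IL-4+anti-CD40, most of it from Bst2, which is interferon-stimulated. Yet of the 10 dendritic cell markers, edgeR called 5 higher with IL-4+anti-CD40 and 3 with LPS (median log2 fold change -0.44). Over all genes tested the shares were 17.3% and 22.3%. Platelet markers summed to 6.49 to 7.33 and 23.8 to 25.9, most of it from Itgb3, with Ppbp and Gp1bb at 0 in every library. The summed T cell, NK cell and erythroid markers stayed at or under 16.6 FPKM. Marker sums of marginal zone B cells overlapped (288 to 314 and 282 to 304). Those of follicular B cells did too (1816 to 1946 and 1683 to 2120.2). Single markers of both lists nevertheless differed, in both directions. Of 8 follicular markers, edgeR called 6 towards LPS against 2 towards IL-4+anti-CD40 (median log2 fold change 0.67). Of 8 marginal zone markers, it called 3 towards each stimulus (median 0.07). Plasma cell markers summed to 536 to 546 and 460.1 to 472. In bulk RNA, fewer cells of a type and less RNA per cell cannot be told apart.

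The 4 LPS libraries lay close together, whereas the IL-4+anti-CD40 libraries fell into a pair of 1 and 2 and a pair of 3 and 4. The highest and lowest library of a group differed at least 2-fold in 76 of 10804 well-covered genes in the LPS group (0.703%) and in 463 in the other (4.29%). Libraries 3 and 4 held more RNA of stress genes and of genes that were higher with LPS. Hspa1a, a heat shock protein, had 3.28, 5.14, 35.4 and 137 FPKM in the 4 IL-4+anti-CD40 libraries and 3.97, 3.5, 9.02 and 8.22 with LPS. For Hmox1, the heme oxygenase, the values were 5.69, 10.4, 73.8 and 143 FPKM, against 7.09, 7.14, 8.33 and 7.48 with LPS. Mt1, a metallothionein, had 1.35, 4.32, 56.4 and 69 FPKM with IL-4+anti-CD40 against 2.08, 1.9, 22.7 and 12.7 with LPS, so that replicates 3 and 4 of both groups were high in it. The summed level of 40 interferon-stimulated genes was 207, 243, 365 and 529.6 FPKM in these libraries, still far below the 5606 to 6143 of the LPS libraries. These genes were chosen after their values were seen, and the part of such differences in the results was not tested. Without IL-4+anti-CD40 libraries 3 and 4, the log2 fold change of Hspa1a went from -2.84 to 0.60 (adjusted p = 0.0514 from edgeR) and that of Mt1 from -1.72 to 1.83. For other named genes the value without this pair is given where it differed by over 1.5-fold, except where libraries 1 and 2 held no reads of the gene (Saa3 and Ifnb1).

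**Figure D1:**
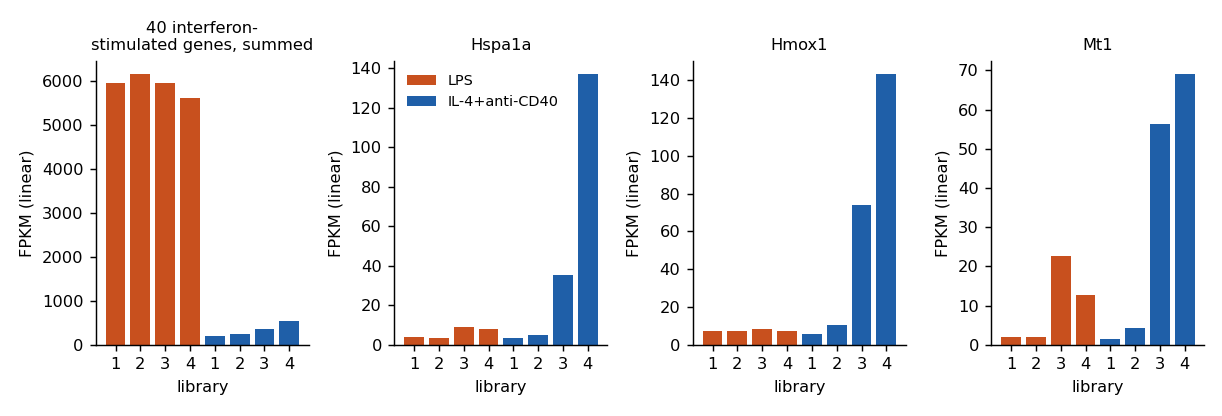
FPKM (linear axes from 0) in each of the 4 LPS libraries (orange) and the 4 IL-4+anti-CD40 libraries (blue), for 40 interferon-stimulated genes summed and for Hspa1a, Hmox1 and Mt1. IL-4+anti-CD40 libraries 3 and 4 stood above 1 and 2 in every panel, whereas for the interferon-stimulated genes all 4 LPS libraries stood far above both pairs.

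Of the 14078 genes tested, 3145 were higher with LPS (22.3%) and 2439 were higher with IL-4+anti-CD40 (17.3%), by edgeR's quasi-likelihood test at an adjusted p of 0.05. The differences on the LPS side were the larger ones: 1161 genes were at least 2-fold, 446 at least 4-fold and 99 at least 16-fold higher with LPS, against 478, 139 and 19 with IL-4+anti-CD40. The groups did not overlap in any library for 2778 genes with LPS above (19.7%) and for 2401 with IL-4+anti-CD40 above (17.1%). Scaling by total counts alone moved the median log2 fold change of all genes from -0.01 to -0.14 and turned the balance, to 2428 genes higher with LPS against 4712 with IL-4+anti-CD40, so that the share of calls on the LPS side fell from 56.3% to 34%. Without IL-4+anti-CD40 libraries 3 and 4 the numbers were 3673 and 3217. The shares of 22.3% towards LPS and 17.3% towards IL-4+anti-CD40 are the background for every count of called list members below.

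**Figure D2:**
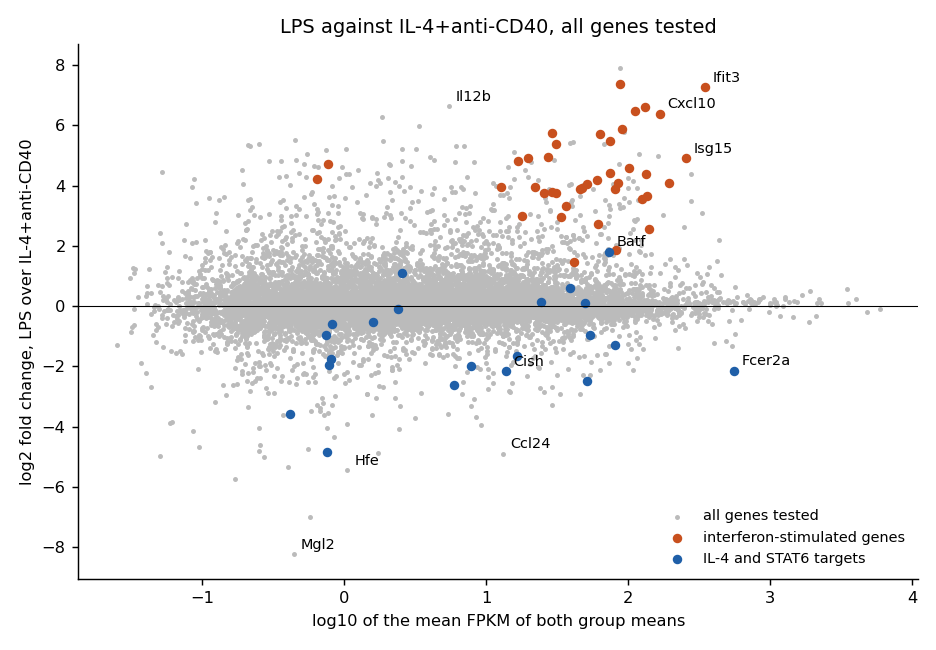
Each point is one of the 14078 genes tested, with the log10 of its mean FPKM on the x axis and the log2 fold change of LPS over IL-4+anti-CD40 on the y axis. Interferon-stimulated genes (orange) lay between 1.47 and 7.36, most at high expression, whereas 14 of the 21 IL-4 and STAT6 targets tested (blue) were called below 0.

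The interferon-stimulated genes formed the most uniform of 27 gene lists. All 40 members of the list were higher with LPS, each at least 2-fold and without overlap, with a median log2 fold change of 4.14 against -0.01 over all genes tested, and 23 of the 99 genes at least 16-fold higher with LPS belonged to it. Without IL-4+anti-CD40 libraries 3 and 4 the median was 5.02, again with all 40 called. Ifit3, an RNA-binding antiviral protein, had 681, 753, 693 and 629 FPKM with LPS against 1.15, 1.66, 5.62 and 10.2 with IL-4+anti-CD40. Its log2 fold change was 7.27 (SE 0.524; edgeR, adjusted p = 4.46e-07). Every LPS library thus held more than any IL-4+anti-CD40 library, and among the latter the pair of 3 and 4 was high. Without that pair the log2 fold change was 9.0.

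Cxcl10, a chemokine that attracts activated T cells, had 327, 343, 348 and 308 FPKM with LPS against 0.998, 1.52, 5.14 and 8.78 with IL-4+anti-CD40, and was 83.9-fold higher (it overlaps Art3 in the annotation). Isg15, a ubiquitin-like modifier, had 493, 442, 545 and 492 FPKM against 7.49, 11.5, 17 and 32.2 (log2 fold change 4.91, SE 0.342; edgeR, adjusted p = 3.37e-07). Both promoters, printed above, held the ISRE core. The other members of the Ifit family, Ifit1bl1, Ifit3b, Ifit1 and Ifit2, were 237, 165, 96.8 and 88.5-fold higher, and Mx1, Slfn5, Cmpk2 and Rsad2 between 52.4 and 58.5-fold. These sizes depend on the pair of libraries 3 and 4. Without it the log2 fold changes were 9.39, 9.58, 7.95 and 8.28 for these Ifit genes and 7.34, 6.94, 6.73 and 7.39 for Mx1, Slfn5, Cmpk2 and Rsad2, and Cxcl10, Isg15 and Ifi209 had 8.10, 5.76 and 5.17. Among the highest levels reached with LPS were also those of Shisa5 (706 FPKM on average), Ms4a4c, Ifi209 and Slfn2, 4.54, 8.54, 20.8 and 2.81-fold higher than with IL-4+anti-CD40.

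The factors that carry the interferon signal were higher with LPS too. Stat2 had 99.1 to 113 FPKM with LPS against 11.6 to 23.1 with IL-4+anti-CD40 (log2 fold change 2.73), and Irf7, which amplifies interferon production, was 23.8-fold higher (log2 fold change 4.57, or 5.38 without libraries 3 and 4). Ifnb1, the interferon-β gene itself, was low even with LPS, at 0.916 to 1.13 FPKM, and was at 0 in IL-4+anti-CD40 libraries 1 to 3 and at 0.139 in library 4, so that it was at least 5.44-fold higher with LPS. Of the Toll-like receptors for nucleic acids, named after their values were seen, Tlr3 had 3.43 to 4.03 FPKM with LPS against at most 0.12 with IL-4+anti-CD40, and Tlr7 and Tlr9 were 4.8 and 2.69-fold higher.

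Cytokine genes called in the main fit all lay on the LPS side. With DESeq2, or with all genes with any count, 1 was called towards IL-4+anti-CD40. Of 24 tested, 20 were higher with LPS against 0 with IL-4+anti-CD40 (median log2 fold change 2.31; Csf3, Tgfb1, Tnfsf13b and Tnfsf14 were not called), and the lowest log2 fold change of the list was 0.16. Il12b, the p40 chain shared by IL-12 and IL-23, had 10.9, 10.4, 11.8 and 10.1 FPKM with LPS against 0.143, 0.0484, 0.207 and 0.0265 with IL-4+anti-CD40. Its log2 fold change of 6.64 (SE 0.237; edgeR, adjusted p = 1.52e-09) came with its highest and its lowest IL-4+anti-CD40 level in libraries 3 and 4, unlike the interferon-stimulated genes, which were high in both. Tnf had 122, 128, 131 and 119 FPKM with LPS against 9.11, 8.74, 20.9 and 37.7 with IL-4+anti-CD40, and its log2 fold change of 2.76 was 3.87 without libraries 3 and 4. Il6, Il10 and Il1b were 5.37, 4.66 and 16.3-fold higher with LPS, with no overlap between the groups.

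Chemokine genes leaned towards LPS: 10 of 15 tested were higher with LPS (median log2 fold change 2.22) against 2 with IL-4+anti-CD40. The number towards IL-4+anti-CD40 is near the share of 17.3% over all genes tested. Ccl3, Ccl4 and Ccl5, which attract T cells and monocytes, were 11.4, 11.3 and 17.8-fold higher with LPS. Their log2 fold changes were 3.52, 3.50 and 4.16, and 4.17, 4.36 and 6.16 without libraries 3 and 4, when 12 of the 15 genes were called towards LPS. Ccl24, the eosinophil chemokine eotaxin-2, had 30.1, 30.3, 19.7 and 22 FPKM with IL-4+anti-CD40 against 0.509, 0.896, 1.03 and 0.888 with LPS, a log2 fold change of -4.89 (SE 0.208; edgeR, adjusted p = 6.06e-09). Ccl17, a ligand of CCR4, had 8.29 to 12.8 FPKM with IL-4+anti-CD40 against 0.732 to 2.17 with LPS.

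A list of genes known as LPS-response genes of myeloid cells was higher with LPS in 16 of 17 members tested (median 2.49), led by Saa3, an acute phase protein, with 3.21 to 3.98 FPKM against at most 0.104. Without IL-4+anti-CD40 libraries 3 and 4 the median was 3.33, and libraries 1 and 2 had 0 FPKM of Saa3. Fpr1 and Fpr2, receptors for bacterial formyl peptides, and Il1b belonged to the same group (Fpr2, log2 fold change 3.94, or 5.14 without these libraries). Conversely, several genes with the largest differences towards IL-4+anti-CD40 are known from myeloid cells: Mgl2, a lectin, had 0.799 to 0.932 FPKM with IL-4+anti-CD40 and 0 in every LPS library, at least 12.1-fold higher. Cd300lb, Mrc1 and Chil3 were 29.2, 12 and 3.15-fold higher with IL-4+anti-CD40. The summed macrophage and neutrophil markers overlapped between the groups, as given above, though single markers differed in both directions (Cd14, log2 fold change 2.48, or 3.33 without libraries 3 and 4, and Csf1r, -1.71), and their part in these differences was not tested.

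IL-4 and STAT6 targets were the list with the lowest median, -1.29: 14 of 21 members tested were higher with IL-4+anti-CD40, 3 lay on the LPS side and 4 were not called. Fcer2a, which encodes the low-affinity IgE receptor CD23, had 1012, 1098, 812 and 729 FPKM with IL-4+anti-CD40 against 198, 206, 192 and 198 with LPS. Its log2 fold change was -2.15 (SE 0.107; edgeR, adjusted p = 1.97e-08), and it was the most highly expressed gene at least 2-fold higher with IL-4+anti-CD40. The pair of libraries 3 and 4 lay lower, yet above every LPS library.

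Cish, an inhibitor of cytokine signalling, had 23.3, 23.5, 21.9 and 21.5 FPKM with IL-4+anti-CD40 against 5.43, 4.64, 5.19 and 4.26 with LPS, and Nfil3, a transcription factor needed for IgE switching, had 68.2 to 106 against 14.1 to 16.2. The IL-4 receptor chain Il4ra was 1.96-fold higher with IL-4+anti-CD40 (63.6 to 79 against 33.8 to 37.4 FPKM). The 3 members higher with LPS were Batf, Ctla4 and Ccl22. Batf, a factor needed for class switching, had 105 to 119 FPKM against 31.5 to 35.2, and Ctla4 and Ccl22 had log2 fold changes of 1.09 and 0.59. Socs1, a STAT6 target that LPS is also known to induce, was not called (23.4 to 27.5 FPKM with LPS, 21.9 to 27.6 with IL-4+anti-CD40; log2 fold change 0.14, adjusted p = 0.227 from edgeR). Without IL-4+anti-CD40 libraries 3 and 4, Socs1 (0.25) and Slc7a2 (0.93) were called towards LPS as well and Bcl2l1 (-0.12) towards IL-4+anti-CD40, for 5 and 15 members in all; with all libraries the log2 fold change of Slc7a2 was -0.54.

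The germline constant region genes separated by isotype. Ighe had 1.59, 1.68, 1.2 and 1.35 FPKM with IL-4+anti-CD40 against 0, 0.108, 0.065 and 0 with LPS, 28.4-fold higher. Ighg1 had 11.2 to 15.1 FPKM against 2.79 to 3.51 (log2 fold change -1.99, SE 0.109; edgeR, adjusted p = 4.12e-08). The constant genes of the isotypes to which LPS is known to direct B cells differed little: Ighg3 had 7.28 to 8.45 FPKM with LPS against 7.86 to 8.91 with IL-4+anti-CD40 (log2 fold change -0.05, 95% interval -0.21 to 0.12), and Ighg2b was 1.22-fold higher with LPS. In all, 10 of 18 constant region and switching genes were higher with LPS against 3 with IL-4+anti-CD40. Ighm, Ighd, Igha and Igkc were 1.29 to 1.53-fold higher with LPS. Constant genes are alike in sequence, and reads shared between them are uncertain.

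The remaining genes with the largest differences towards IL-4+anti-CD40 were low in level. Hfe, the haemochromatosis protein of iron sensing, had 2.49, 2.55, 1.86 and 1.34 FPKM against 0, 0.0601, 0.0722 and 0.046 (log2 fold change -5.44, SE 0.394; edgeR, adjusted p = 4.69e-07). Cldn1, a tight junction protein, was at least 25.2-fold higher, Il31ra 31.8-fold, Fam83f 26.9-fold, Gucy2c 24.3-fold and Spsb1 16.8-fold, whereas Igf1, Dhrs9 and Abcd2 stayed under 0.3 FPKM in every library. Among highly expressed genes, Syngr2, Cd79b, H2-DMb2, Marcks and Cd44 were 2.5, 2.24, 2.61, 2.1 and 2.69-fold higher with IL-4+anti-CD40.

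**Figure D3:**
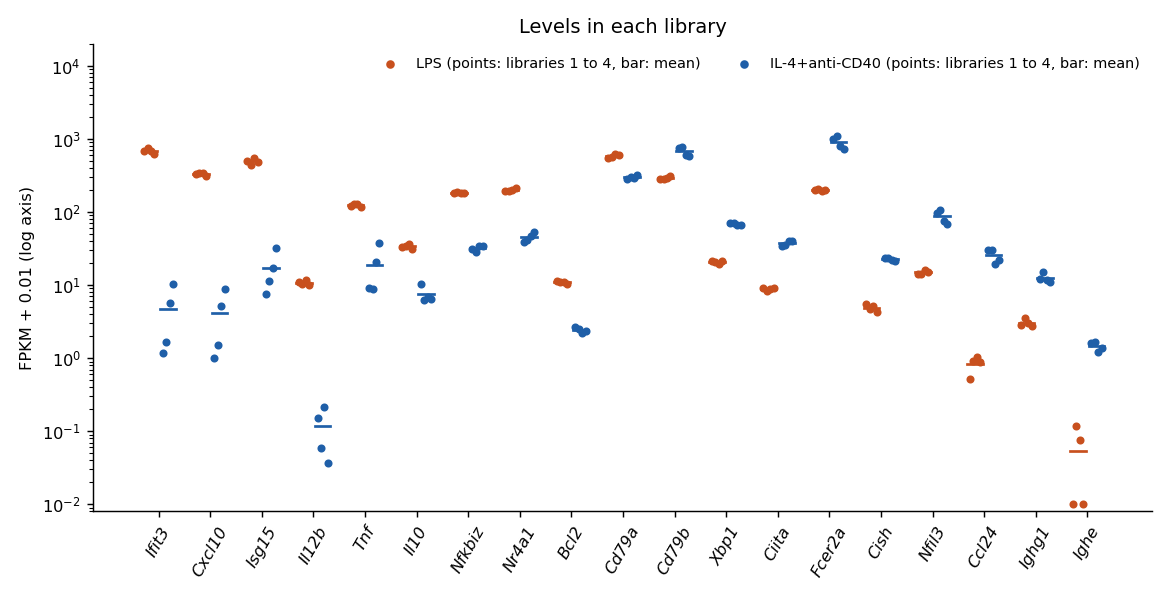
FPKM plus 0.01 (log axis) of 19 genes in the 4 LPS libraries (orange points) and the 4 IL-4+anti-CD40 libraries (blue points), with bars at the group means. The groups did not overlap for any gene shown. For Ifit3, Cxcl10 and Tnf, which were higher with LPS, the spread was wider with IL-4+anti-CD40 than with LPS.

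Of 28 components of the TLR4 pathway, 14 were higher with LPS against 5 with IL-4+anti-CD40; of 27 of the IL-4 receptor and JAK-STAT pathway, 14 and 6; and of 26 of the CD40 and TNF receptor family, 10 and 5, or 6 and 9 with total counts as the scaling. Tlr4 was low in every library (0.495 to 1.01 FPKM with LPS, 0.428 to 0.459 with IL-4+anti-CD40; log2 fold change 0.69, adjusted p = 0.0267 from edgeR) and its partner Ly96 was not called (0.38, adjusted p = 0.309 from edgeR; 1.01 and 0.000572 without IL-4+anti-CD40 libraries 3 and 4). Cd14 had 21.5 to 25.6 FPKM with LPS against 2.32 to 8.25 with IL-4+anti-CD40. Cd40 had 139 to 158 FPKM with LPS against 92.6 to 97.2 with IL-4+anti-CD40 (log2 fold change 0.71, SE 0.0492), so it was higher with the stimulus that is not directed at it. Of the adaptors, Myd88 was 2.32-fold higher with LPS, and Ticam1, which encodes TRIF, was 1.69-fold higher with IL-4+anti-CD40 (11.8 ± 0.366 and 20.7 ± 1.21 FPKM, SD, n = 4).

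NF-κB target genes, which both stimuli are known to induce, leaned towards LPS, most of them by small differences. Of 24 tested, 15 were higher with LPS, 1 (Cd83, log2 fold change -0.20) with IL-4+anti-CD40 and 8 were not called, with a median of 0.34. At least 2-fold differences were called in 6 towards LPS and 0 towards IL-4+anti-CD40. Nfkbiz, an atypical IκB protein induced by TLR signalling, stood out with 181 to 187 FPKM against 28.4 to 34.4, 5.93-fold higher with LPS. The core members differed little: Nfkb1, Nfkb2, Rel and Relb had log2 fold changes of 0.35, 0.21, 0.12 and 0.10, the last of these not called. Birc3 and Traf1, targets of CD40 signalling, were not called (0.06 and 0.00). With total counts as the scaling, 12 of the 24 genes were higher with LPS against 4 with IL-4+anti-CD40.

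Immediate early genes and their feedback regulators were called in 20 of 33 cases towards LPS and in 5 towards IL-4+anti-CD40. Jun had 112 to 122 FPKM with LPS against 15.4 to 26.8 with IL-4+anti-CD40, and Nr4a1, a nuclear receptor used as a reporter of antigen receptor signals, had 196 to 210.5 against 39.5 to 53.8. Egr2 and the MAPK phosphatase gene Dusp10 went the other way, with log2 fold changes of -2.33 and -1.99. Maff was called higher with IL-4+anti-CD40 (7.22, 9.54, 23.7 and 35.7 FPKM against 6.9 to 8.53 with LPS), and without libraries 3 and 4 it was not (log2 fold change -0.05, adjusted p = 0.747 from edgeR). Without LPS replicate 1, 2 or 4, 3 genes of the list in place of 5 were called towards IL-4+anti-CD40.

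Transcription factors of B cell fate were divided. Bach2 and Bcl6, which hold back plasma cell differentiation, were 3.52 and 2.61-fold higher with LPS, as were Myc (505 to 543 against 196 to 242 FPKM) and Zbtb32 (4.91-fold). Xbp1, a factor of the secretory programme, had 66.8 to 71.2 FPKM with IL-4+anti-CD40 against 19.6 to 21.2 with LPS (log2 fold change -1.69, SE 0.0463; edgeR, adjusted p = 2.64e-10). Prdm1, which encodes Blimp-1, was low in both groups and 1.38-fold higher with IL-4+anti-CD40, whereas Irf4 was 1.53-fold higher with LPS. In all, 18 of the 31 factors listed were higher with LPS against 8 with IL-4+anti-CD40.

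Antigen presentation separated by class. Of 16 genes of MHC class II presentation, 10 were higher with IL-4+anti-CD40 against 5 with LPS, where 17.3% and 22.3% of all genes tested were. Ciita, the master regulator of class II, had 34.4, 35.3, 40.4 and 40.6 FPKM with IL-4+anti-CD40 against 9.2, 8.42, 8.89 and 9.2 with LPS (log2 fold change -2.03, SE 0.0699; edgeR, adjusted p = 1.18e-09). The peptide loading genes H2-DMa, H2-DMb1 and H2-DMb2 and the thiol reductase gene Ifi30 were 2.35 to 3.71-fold higher, and the class II chain genes H2-Ab1, H2-Aa and H2-Eb1 1.27 to 1.45-fold. Higher with LPS were Ctss, which cleaves the invariant chain, March1, which removes class II from the surface, H2-Ob, Lgmn and Rfx5.

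For class I presentation 13 of 16 genes were higher with LPS against 1 (Calr) with IL-4+anti-CD40. Tap1, a subunit of the peptide transporter, had 123 to 133 FPKM with LPS against 31.5 to 41.6 with IL-4+anti-CD40, and Nlrc5, the transactivator of class I, was 3.83-fold higher. The immunoproteasome genes Psmb8, Psmb9 and Psmb10 were 2.09 to 3.21-fold higher with LPS, while H2-K1 was 1.19-fold higher and H2-D1 was not called. Several of these genes are also known to respond to interferon, and Tap1 stands in both lists.

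Surface molecules used with T cells and for homing differed one by one. Icosl, the ligand of ICOS, had 38.1 to 38.7 FPKM with LPS against 5.73 to 9.07 with IL-4+anti-CD40, and Cd274 (PD-L1), Cd69 and Cd24a were 3.42, 2.46 and 3.78-fold higher with LPS. Cd86 and Cd80 differed by 1.23 and 1.58-fold in the same direction. Of the 24 surface molecules listed, 14 were higher with LPS against 5 with IL-4+anti-CD40. Of 22 trafficking receptors, 7 were higher with LPS, among them Cxcr5 and Ccr7, and 8 with IL-4+anti-CD40, among them S1pr3 (12.8 to 16.8 against 1.2 to 1.54 FPKM), Cx3cr1 and Gpr183 (EBI2). The signalling chains of the antigen receptor were split: Cd79a had 557 to 627 FPKM with LPS against 285 to 324 with IL-4+anti-CD40, whereas Cd79b had 285 to 307 and 590.5 to 772.

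**Figure D4:**
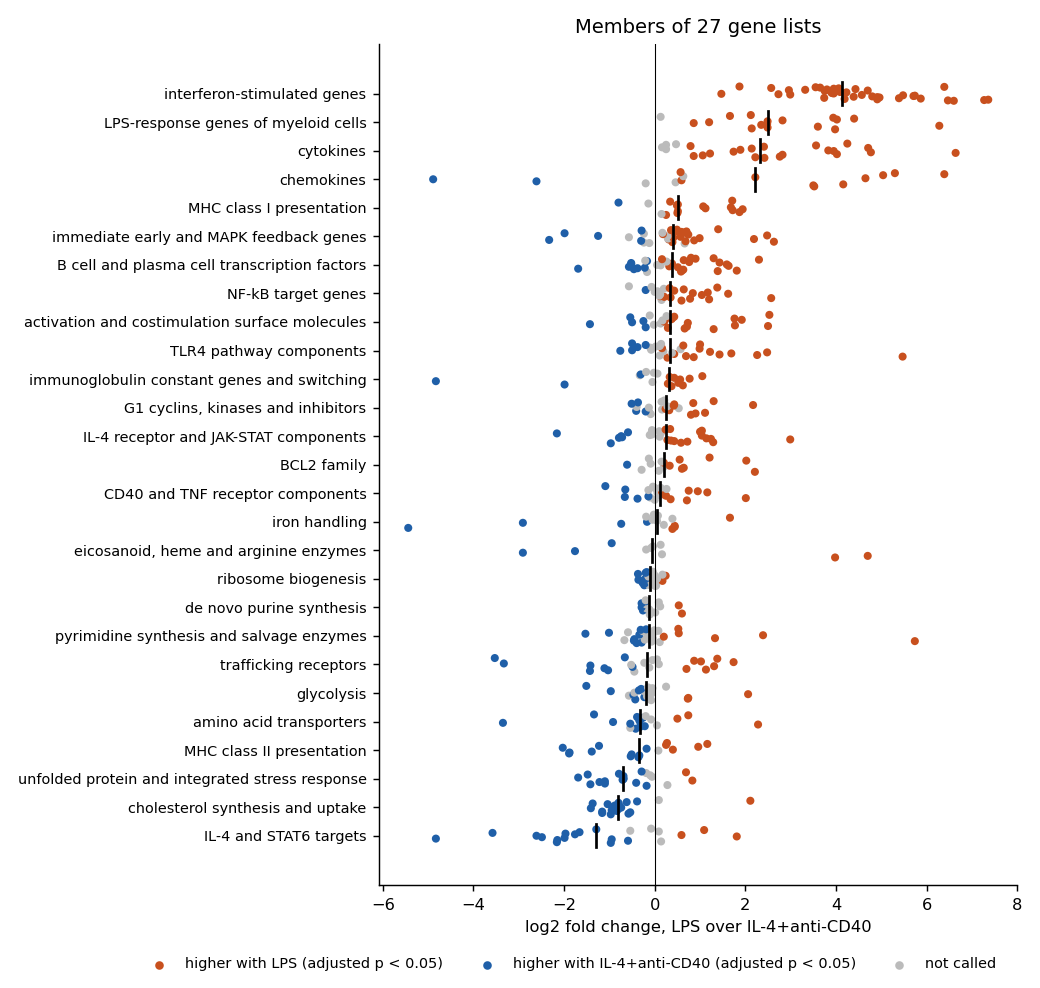
Log2 fold changes of LPS over IL-4+anti-CD40 for the members of 27 gene lists, one point per gene, ordered by the list median (black bar); orange and blue mark genes called towards LPS and towards IL-4+anti-CD40 respectively, grey those not called. Interferon-stimulated genes stood at the top with a median of 4.14 and IL-4 and STAT6 targets at the bottom with -1.29.

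Survival and cell cycle genes leaned towards LPS. Of 15 genes of the BCL2 family, 8 were higher with LPS against 1, the pro-apoptotic Bax, with IL-4+anti-CD40. Bcl2 had 10.5 to 11.3 FPKM with LPS against 2.23 to 2.68 with IL-4+anti-CD40 (log2 fold change 2.21), and the pro-apoptotic Bmf and Bcl2l11 were also higher with LPS, 4.05 and 2.31-fold. Bcl2l1, which encodes BCL-XL, was not called (0.09). Of 23 regulators of the G1 phase, 10 were higher with LPS against 4 with IL-4+anti-CD40, the latter near the 17.3% of all genes tested. Rbl1 was 4.51-fold higher with LPS and Ccnd2, the main D cyclin here at 186 ± 5.31 and 206 ± 35.1 FPKM (SD, n = 4), was not called.

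Metabolic lists leaned towards IL-4+anti-CD40, most uniformly cholesterol synthesis and uptake, with 20 of 22 genes higher there and 1 with LPS (median -0.81). Lss, which closes the sterol ring, had 15.8 to 18.2 FPKM against 5.88 to 6.41, and Hmgcs1 had 127 to 142 against 64.4 to 68.2 (log2 fold change -0.97, SE 0.0465). The exception was Abca1, which exports cholesterol, at 9.03 to 11 FPKM with LPS against 1.95 to 2.86 with IL-4+anti-CD40, and Abcg1 was not called. Genes of the unfolded protein and integrated stress responses were higher with IL-4+anti-CD40 in 14 of 20 cases (median -0.69), with Ddit3, Chac1, Sesn2 and Trib3 between 2.15 and 2.68-fold. Amino acid transporters followed in 11 of 18 cases, whereas Slc7a11, the cystine transporter, was 4.86-fold higher with LPS (log2 fold change 2.28, or 3.19 without libraries 3 and 4). Of 10 eicosanoid, heme and arginine enzymes, 2, the prostaglandin genes Ptgs2 and Ptges (log2 fold changes 3.98 and 4.70, or 4.88 and 6.57 without these libraries), were higher with LPS against 3 with IL-4+anti-CD40. The number towards LPS is near the share of 22.3% over all genes tested.

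Pyrimidine enzymes, on which the study turned, differed one by one. Of 30 tested, 9 were higher with IL-4+anti-CD40 against 6 with LPS, where 17.3% and 22.3% of all genes tested were. Of the de novo pathway, Cad had 37.4, 39.7, 32.1 and 29.9 FPKM with IL-4+anti-CD40 against 27, 24, 24.1 and 26.6 with LPS (log2 fold change -0.40, SE 0.0818; edgeR, adjusted p = 0.00214), Dhodh was 1.22-fold higher with IL-4+anti-CD40, and Umps was not called (0.11, adjusted p = 0.254 from edgeR). Dctd, the deoxycytidylate deaminase, was not called either (-0.15, adjusted p = 0.407 from edgeR), but was without IL-4+anti-CD40 libraries 3 and 4 (-0.37, adjusted p = 0.00281). The salvage kinases went opposite ways: Tk1 had 44.3 to 49.1 FPKM with IL-4+anti-CD40 against 15.2 to 16 with LPS, whereas Dck had 14.9 to 16.6 with LPS against 2.91 to 3.48 with IL-4+anti-CD40. Without libraries 3 and 4, 18 genes in place of 9 were called towards IL-4+anti-CD40. Cmpk2, a mitochondrial nucleotide kinase that is also interferon-stimulated, was 53.4-fold higher with LPS.

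Small differences in ribosome biogenesis, purine synthesis and glycolysis depended on the libraries and the scaling. Of 40 ribosome biogenesis genes, 13 were higher with IL-4+anti-CD40 against 2 with LPS (median -0.10, extremes -0.37 and 0.24). Without IL-4+anti-CD40 libraries 3 and 4 the numbers were 28 and 0 (median -0.20), and with total counts 26 and 0, whereas leaving out LPS replicate 2 or 4 gave 8 or 7 towards IL-4+anti-CD40. Purine synthesis had 4 of 15 genes higher with IL-4+anti-CD40 and glycolysis 7 of 20, and without libraries 3 and 4 these were 10 and 11; leaving out IL-4+anti-CD40 replicate 4 alone gave 8 and 11, and replicate 3 alone 7 purine genes. Iron handling genes were divided 4 to 4, or with 2 towards IL-4+anti-CD40 without its replicate 3 or LPS replicate 2 or 4, and Hmox1 and Ftl1, called higher with IL-4+anti-CD40, had log2 fold changes of -2.91 and -0.74 with all libraries and of -0.03 and -0.13 without 3 and 4.

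The second experiment compared 1 library per stimulus, so it has no test, and its FPKM come from a separate table. Of 13595 genes with enough counts there, 609 were at least 2-fold towards LPS (4.48%) and 432 at least 2-fold towards IL-4+anti-CD40 (3.18%), in libraries of 17509704 and 17602312 counts. Of the 5317 genes called in the first experiment and present in both, 80.2% lay on the same side, against 59.2% of the 7881 genes not called. At least 2-fold differences of the first experiment kept their side in 849 of 1022 genes that were higher with LPS (83.1%), and in 342 of 379 on the IL-4+anti-CD40 side (90.2%). Across the 13198 genes in both, which are not independent, Pearson's correlation of the log2 values was 0.478 and Spearman's 0.472.

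The interferon-stimulated genes, the most uniform group of the first experiment, hardly separated the libraries of the second. There, 4 of the 40 were at least 2-fold higher with LPS, 33 lay on the LPS side, and the median log2 ratio was 0.24 in place of 4.14. Summed over the 40 genes, the level was 1540.2 FPKM with LPS against 1191 with IL-4+anti-CD40, below the 5606 of the lowest LPS library and above the 529.6 of the highest IL-4+anti-CD40 library of the first experiment, although levels from separate tables are compared only roughly. Isg15 had 121 and 71.5 FPKM, Cxcl10 87.3 and 67, and Mx1 28.4 and 28.8. The Ifit genes differed more, Ifit3 with 115 against 50.7 FPKM and Ifit1bl1 with 26.8 against 5.36. The class I genes, which had 13 of 16 members higher with LPS in the first experiment, had a median log2 ratio of -0.09.

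IL-4 and STAT6 targets, in contrast, again differed: 11 of 20 were at least 2-fold higher with IL-4+anti-CD40 against 2 with LPS, with a median log2 ratio of -1.03 in place of -1.29. Cish had 18.5 FPKM with IL-4+anti-CD40 against 1.62 with LPS, Nfil3 had 95.3 and 6.33, and Ighg1 had 6.53 and 1.13. Ciita had 30 FPKM with IL-4+anti-CD40 against 8.92 with LPS, and of 16 class II genes 5 were at least 2-fold towards IL-4+anti-CD40 and 4 lay on the LPS side, with a list median of -0.30. Cytokine genes were at least 2-fold higher with LPS in 9 of 19 cases and never with IL-4+anti-CD40; Il12b had 13.6 and 3.45 FPKM and Tnf 21.2 and 10.3. Nfkbiz, Nr4a1, Icosl and Bmf had log2 ratios of 2.08, 2.02, 1.88 and 3.06.

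Myeloid genes were scarce in the second experiment. The summed macrophage and monocyte markers were 23.6 FPKM with LPS against 27.9 with IL-4+anti-CD40, below the 96.3 of the lowest library in the first experiment, and neutrophil markers 1.36 and 1.37. Ccl24 had 0 FPKM with LPS against 0.335 with IL-4+anti-CD40, Chil3 0.0332 and 0.233, Mgl2 0 and 0.0518, and Saa3 0.0208 in both, all of them far below the group in which they were high in the first experiment. These genes and the summed myeloid markers were all lower in the second experiment, but by different amounts. In the first experiment, Ccl24 averaged 25.5 FPKM with IL-4+anti-CD40 and Saa3 averaged 3.62 with LPS. Erythroid and platelet marker sums were instead higher in the second experiment. Erythroid markers reached 36.8 (LPS) and 34.6 FPKM (IL-4+anti-CD40), where no library of the first exceeded 5.24. Platelet markers reached 38.1 and 45.8 FPKM, where none exceeded 25.9. The part of these marker shifts was not tested.

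Few genes changed sides by a wide margin. Among genes at least 2-fold different and without overlap in the first experiment, 258 higher with LPS and a further 178 higher with IL-4+anti-CD40 were at least 2-fold different in the same direction in the second, and 14 and 6 in the opposite direction. Socs3, a feedback inhibitor of cytokine signalling, had 133 to 149.5 FPKM with LPS against 73.5 to 75.7 with IL-4+anti-CD40 in the first experiment, and 14.3 and 69.2 in the second. Socs1 had 4.88 and 28.4 FPKM in the second experiment, where the first had shown no called difference. For both genes the IL-4+anti-CD40 level was similar in the experiments, and the LPS level was high in the first and low in the second. Jun, 6.17-fold higher with LPS in the first experiment, had 37.8 FPKM in both libraries of the second.

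**Figure D5:**
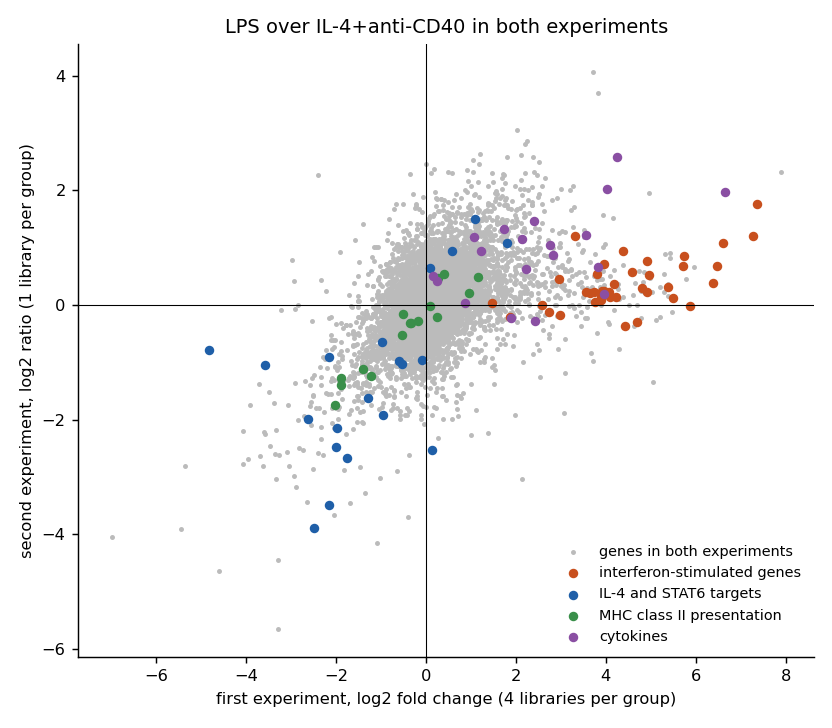
Log2 fold change of LPS over IL-4+anti-CD40 in the first experiment (x axis, 4 libraries per group) against the log2 ratio in the second (y axis, 1 library per group) for 13198 genes, with 4 lists in colour. Interferon-stimulated genes (orange) lay far to the right on the x axis but mostly near 0 on the y axis, whereas 11 of 20 IL-4 and STAT6 targets (blue) lay at least 2-fold below 0 on the y axis.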

How the data were processed

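B cell RNA was sequenced after poly-T selection. Per the labels and methods, the authors used Fastp for trimming, HISAT2 2.0.5 for alignment to mm10 and featureCounts 1.5.0-p3 for counting per gene; the annotation release and the strand setting are not given in the sources used here, so overlapping genes are uncertain. The authors deposited raw counts, and FPKM derived from these and gene length. Here counts of the 8 libraries were tested with edgeR 4.0.16 in R 4.3.3 (quasi-likelihood test, TMM, filterByExpr, Benjamini-Hochberg adjustment over all genes tested, threshold 0.05), and FPKM are given as levels. On data simulated from these 8 libraries, edgeR found 137 of 148 genes planted at 2-fold with a mean of at least 50 counts. Of all 200 planted it found 144, with 5 false calls. The simulated libraries varied independently, without the split of IL-4+anti-CD40 libraries 3 and 4 from 1 and 2, so these numbers do not cover that split. A fold against a group with at most 3 counts in every library is a lower bound against that floor. Second-experiment ratios used TMM with a prior count of 2 and required 10 counts on average. Alternatives were DESeq2 1.42.0, other scalings and filters, all 20 libraries in one fit, a minimum fold change, a replicate block and leaving out libraries.

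Named genes were, per direction, the 12 protein-coding genes with the largest fold change among those called, without overlap and no library of the higher group under 10 counts, the 6 with the highest FPKM among those at least 2-fold different, and up to 4 called members per list with defining members. Members of lists beyond that number were chosen after their values were seen. The comparison and the 27 gene lists and 11 marker lists were chosen with earlier results of these data known. Promoters were matched by symbol for 20481 genes, taking the start nearest to that in the deposited annotation. Counting errors do not include the spread between mice. Marker lists were planned as summed CPM and are given as summed FPKM, the deposited level scale. A few genes are not reported here.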

Additional observations from a re-analysis of the deposited data

Results flagged for a closer look

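Of 70 groups of 4 values examined for a library far from the others, 2 held one, where chance gives about 1 in 20. With LPS, Ifit1bl1 had 166 FPKM in replicate 4 against a median of 177, a gap of 0.899 of the range of the group. Igf1 had 0.0111 FPKM in LPS replicate 4 and 0 in the other LPS libraries (a gap of 1 of the range). Both differences are small beside the distance to the IL-4+anti-CD40 libraries, which had at most 1.44 FPKM of Ifit1bl1 and at least 0.0683 of Igf1.

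A pair of listed genes were at least 2-fold higher with LPS in the first experiment, without overlap, and at least 2-fold lower in the second, where 1 library per stimulus allows no test of the difference. Socs3 had a log2 ratio of -2.26 in the second experiment and a log2 fold change of 1.00 in the first. Cxcl9, a chemokine induced by interferon-γ, had -1.35 in the second experiment (0.431 FPKM with LPS against 1.17 with IL-4+anti-CD40). In the first it had 5.04, or 5.99 without IL-4+anti-CD40 libraries 3 and 4.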

How the results depend on the processing

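The numbers of genes called towards LPS and towards IL-4+anti-CD40 stayed within 1.5 times of 3145 and 2439 with DESeq2 (3093 and 2573), DESeq2's size factors, other count filters, all 20 libraries in one fit, and each library left out in turn (2837 to 3276 and 2055 to 2654). A minimum log2 fold change of 1 left 1161 and 478, and scaling by total counts gave 4712 genes higher with IL-4+anti-CD40. Libraries with the same number did not deviate together over well-covered genes (correlations between -0.056 and 0.013). These values cannot exclude paired samples, since IL-4+anti-CD40 libraries 3 and 4 also stood apart from 1 and 2. A replicate block gave 2973 and 2164. A block of libraries 1 and 2 against 3 and 4, added after seeing the data, gave 3293 and 2657. The difference of 3 and 4 from 1 and 2 had a correlation of -0.007 between the groups over 10804 genes, though 4 genes were at least 2-fold higher in 3 and 4 of both. Every named gene of the size and level rules kept its direction and its call in each alternative that tested it. The interferon-stimulated genes were called in 37 to 40 of 40 cases. The share of genes on the same side in the second experiment was 80.1% to 81.1% with other settings and 85% for genes at least 2-fold different, and the share of interferon-stimulated genes with the ISRE core was 33.3% within 100 bases. Counts of called members of single lists moved by over 1.5 times in 124 cases and stayed within that in 956. Settings that use libraries 1 and 2 or 3 and 4 alone were chosen after seeing the data.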
